A study of Mus musculus with 37 samples.

Results

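Gas5, Snhg1, Snhg6, Snhg8, Snhg12 and Zfas1 are 6 long non-coding transcripts of the mouse genome that carry small nucleolar RNAs (snoRNAs) in their introns. The group was chosen by the VIP and irradiation differences that earlier fits of the same libraries had given, so those differences are described below and not tested. The rows were found by symbol in the 3 count tables of the series, which hold 27407, 20500 and 27547 genes, and all 6 were in each table. All 6 also passed the filter on low counts in each experiment, among 12727, 6778 and 9976 genes tested. Jejunal organoids, epithelial structures grown from the crypts of the small intestine, were exposed to vasoactive intestinal peptide (VIP), a neuropeptide of the enteric nervous system, at 100 nM. Whole organoids from C57Bl/6 mice were left untreated (3 cultures) or received VIP for 72 h (4 cultures). Lgr5-EGFP+ cells were sorted from organoids of Lgr5-EGFP-IRES-CreERT2 mice, in which the Lgr5 promoter drives a green reporter and Cre in stem and progenitor cells, after 72 h without or with VIP (4 mice, 4 cultures per group). In the irradiation experiment, organoids of another 4 such mice were either not irradiated or received 6 Gy of X-rays, each without or with VIP for the next 48 h, and Lgr5-EGFP+ cells were sorted from all 4 conditions. Mice were male and female adults aged between 6 and 12 weeks. All cultures were epithelium alone, without the nerves that release VIP in the gut, and cultures of 1 mouse share that animal.

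A snoRNA host gene is transcribed by RNA polymerase II, its introns are trimmed to release snoRNAs, and its spliced and polyadenylated exons remain as a host transcript. C/D box snoRNAs guide 2′-O-methylation and H/ACA box snoRNAs guide pseudouridylation, mostly of ribosomal RNA. Many non-coding host transcripts begin with a run of pyrimidines, like the messages of ribosomal proteins, and many are short-lived because translation of their short reading frames leads to nonsense-mediated decay. Gas5 was first described as a transcript that accumulates in growth-arrested cells, and the crypt base, where Lgr5-positive cells divide, is a tissue with high ribosome production. The libraries capture polyadenylated 3′ ends and count each captured molecule once by its unique molecular identifier (UMI), so they measured the host transcripts and not the snoRNAs. Of 26 annotated snoRNA loci in the 6 host genes, 2 had a row in the tables, with at most 4, 2 and 7 UMIs in any library of the 3 experiments.

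On GRCm38, Gas5 (ENSMUSG00000053332) lies on the plus strand at chr1:161034422-161038539, with 9 snoRNA loci in its introns and 25 annotated transcripts. Snhg1 (ENSMUSG00000108414) is on the plus strand at chr19:8723475-8726443 with 8 loci. Zfas1 (ENSMUSG00000074578) is on the plus strand at chr2:167062934-167065862 with 3 loci, and Snhg6 (ENSMUSG00000098234) is on the minus strand at chr1:9941959-9944118 with 1 locus. Snhg8 (ENSMUSG00000104960), on the minus strand at chr3:123507552-123508404, hosts a single H/ACA snoRNA, and Snhg12 (ENSMUSG00000086290), on the plus strand at chr4:132308623-132311024, has 4 loci of both classes. By box letters found in their sequences, 18 of the 26 loci were C/D and 3 were H/ACA, and the others held neither set of letters exactly. Every locus lay between exons of at least 1 annotated transcript of its host, and 20 of the 25 Gas5 transcripts are annotated as retaining an intron.

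Examples from 3 hosts show what the introns release. Capitals mark the C box (TGATGA) and the D box (CTGA) in the C/D snoRNAs and the ACA near the 3′ end of the H/ACA snoRNA, all read from GRCm38 and written 5′ to 3′.
Snord47, intron of Gas5, chr1:161038082-161038158, plus strand: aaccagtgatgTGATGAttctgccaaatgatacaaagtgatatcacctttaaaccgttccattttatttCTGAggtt
Snord12, intron of Zfas1, chr2:167065276-167065365, plus strand: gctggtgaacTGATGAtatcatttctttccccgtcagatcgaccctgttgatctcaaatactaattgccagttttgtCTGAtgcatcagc
Snora24, intron of Snhg8, chr3:123507937-123508066, minus strand: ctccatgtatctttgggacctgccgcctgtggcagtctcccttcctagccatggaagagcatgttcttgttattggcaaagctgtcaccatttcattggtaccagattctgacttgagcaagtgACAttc

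The starts of the hosts bear on whether they share the pyrimidine start of ribosomal protein genes. Promoters from RefSeq (GRCm38.p6, 250 bases before to 50 bases after a start) were found for 5 of the 6 genes, with 2 starts for Gas5, and Snhg6 had no entry. A C followed by at least 4 further pyrimidines, beginning within 2 bases of the start on the strand of the gene, was present in 8.96% of all 32851 promoters and in 30.3% of 76 promoters of cytosolic ribosomal proteins. It was present in 3 of the 6 host promoters, those of the downstream start of Gas5, of Snhg8 and of Snhg12. The count holds for the RefSeq starts alone, and where the letters were not found it says only that they are not in this window: 1 GENCODE transcript of Zfas1 has another start, with a run of 6 pyrimidines. The letters TATA between 40 and 20 bases before the start were present in 5.81% of all promoters, 9.21% of the ribosomal protein promoters and 4 of the 6 host promoters. The pyrimidine run and the TATA are in capitals in the stretches below, which are descriptions of the letters and not of a bound factor.
Gas5, downstream start, chr1:161035121-161035195, plus strand: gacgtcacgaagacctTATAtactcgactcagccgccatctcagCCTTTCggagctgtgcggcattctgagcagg
Snhg8, chr3:123508307-123508381, minus strand: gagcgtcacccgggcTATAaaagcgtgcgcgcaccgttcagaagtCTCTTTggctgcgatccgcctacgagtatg
Snhg12, chr4:132308633-132308707, plus strand: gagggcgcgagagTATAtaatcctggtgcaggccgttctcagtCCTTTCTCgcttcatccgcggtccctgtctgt
Snhg1, TATA alone, chr19:8723442-8723516, plus strand: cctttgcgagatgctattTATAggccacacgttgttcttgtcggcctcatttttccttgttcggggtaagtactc

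The libraries held 3722716 to 6330404 UMIs per whole organoid culture, 575242 to 1104126 per sorted sample after 72 h and 1075715 to 1876729 per sorted sample of the irradiation experiment. All 6 stem and progenitor markers of the list (among them Lgr5, Olfm4 and Smoc2) were detected in every group, and the sorted samples also held Paneth cell transcripts, with a summed level of 3778 to 28027 UMI counts per 1000000 UMIs (CPM). Of the 7 immune and mesenchymal markers, 5 had a row in the organoid experiment, 2 in the 72 h sorted experiment and 7 in the irradiation experiment. Those with a row summed to at most 10.6 CPM in any culture. All but 1 of the organoid cultures had a first and a second library, which were summed, and 2 libraries stood apart. The second library of VIP-treated mouse 3 differed by more than 2-fold from the first in 416 of 5371 genes, against at most 8 genes in the other pairs. The second library of VIP-treated mouse 2 held 1692 UMIs of Zfas1 against 192 in the first. Results that rest on these libraries are given with and without them below. In bulk samples, fewer cells that hold a transcript and less of it per cell cannot be told apart. Levels are given in TMM-scaled CPM, in which 1 molecule counts once whatever the length of its transcript, and each experiment was scaled on its own.

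**Figure D1:**
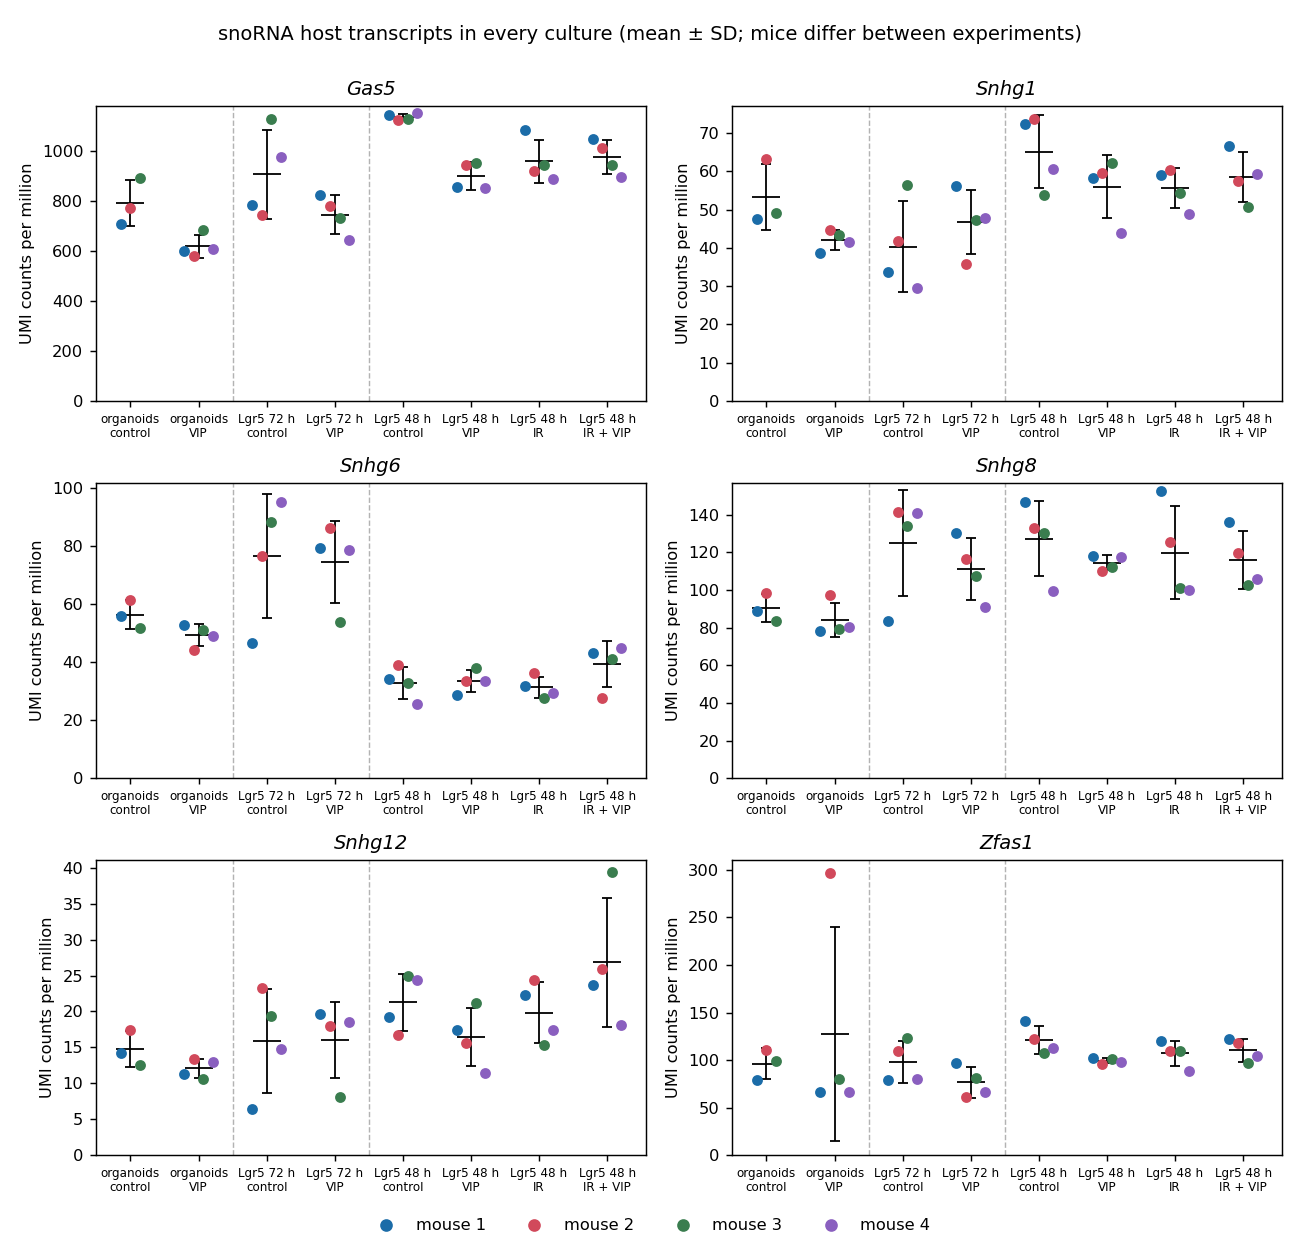
CPM of the 6 host transcripts in every culture, with technical replicate libraries summed. Points are cultures coloured by mouse within an experiment, black bars show the mean ± SD, and dashed lines separate the experiments. Gas5 in the untreated non-irradiated cells of the irradiation experiment spans 1126 to 1152, and Zfas1 has 1 culture at 296 among VIP-treated organoids.

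Gas5, the host of 9 snoRNA loci, was lower with VIP in whole organoids in each of 3 mice. It was at 711, 774 and 895 CPM in the untreated cultures of mice 1, 2 and 3 and at 602, 582, 685 and 608 CPM in the VIP-treated cultures of mice 1 to 4. Every VIP-treated culture lay below every untreated one. The means were 793 ± 93.5 (SD, n = 3) and 619 ± 45.4 CPM (SD, n = 4), and the fitted log2 fold change was −0.35 ± 0.08 (SE), so that VIP-treated organoids held 78.7% of the untreated level. Counting error alone would give a coefficient of variation of 1.63% and 1.65% in these groups, against 11.8% and 7.32% observed.

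Among the single libraries, 7 of 8 from VIP-treated organoids held Gas5 at 560 to 624 CPM, scaled by library size alone, and the 5 from untreated organoids at 712 to 843 CPM. The eighth, the second library of VIP-treated mouse 3, held 837 against 573 in the first library of that culture. Without it the fitted change was −0.41 ± 0.08. The goblet cell list moved with the same treatment, from a summed 5322 to 7192 CPM in untreated to 7674 to 9360 CPM in VIP-treated cultures. The share of UMIs from cytosolic ribosomal protein genes was 5.55% to 5.85% in untreated and 4.91% to 5.24% in VIP-treated cultures, and the part of either in the Gas5 difference was not tested.

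**Figure D2:**
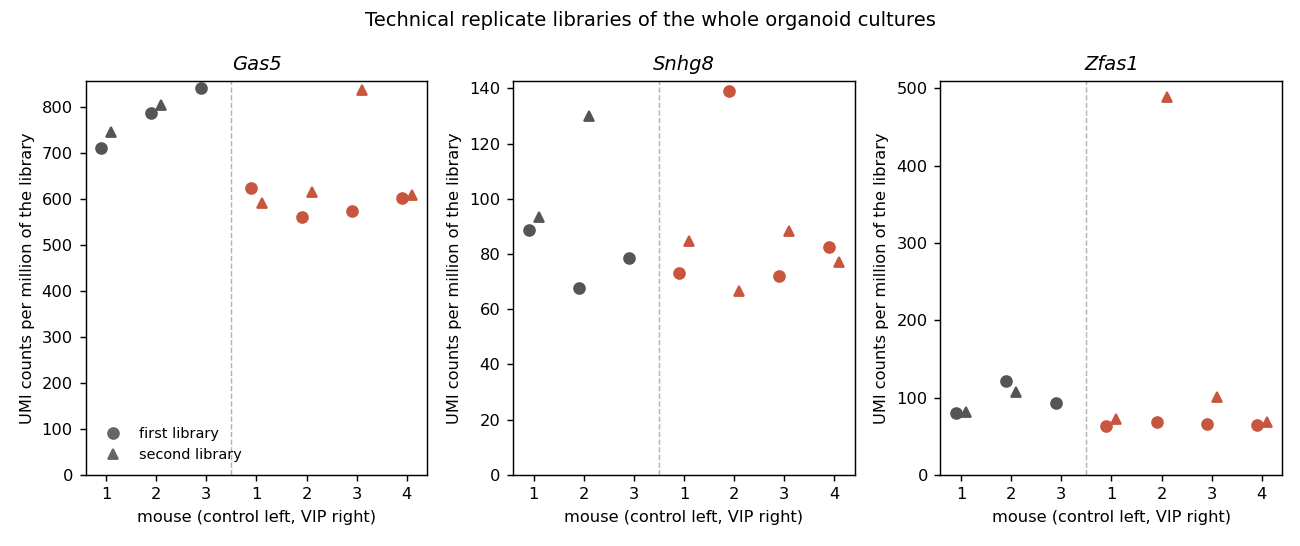
CPM, scaled by library size alone, for Gas5, Snhg8 and Zfas1 in each technical replicate library of the whole organoid cultures, untreated at the left and VIP-treated at the right of the dashed line. Circles are first and triangles second libraries. One second library each stands apart for Gas5 (mouse 3, 837) and Zfas1 (mouse 2, 488), and the Snhg8 libraries of mouse 2 are spread in both treatments.

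In the irradiation experiment Gas5 again lay lower with VIP where the organoids had not been irradiated. The untreated non-irradiated samples were at 1145, 1126, 1130 and 1152 CPM in mice 1 to 4, and the VIP-treated ones at 856, 944, 952 and 851 CPM. The groups did not overlap and the level was lower in 4 of 4 mice, with a fitted log2 fold change of −0.34 ± 0.07 and 79.1% of the untreated level. The 4 untreated samples had a coefficient of variation of 1.07%, below the 2.32% that counting error gives on average. Stem and progenitor markers summed to 3211 to 4327 CPM in the untreated and 5122 to 5638 CPM in the VIP-treated samples, and Paneth cell markers to 9929 to 14468 and 8439 to 9720 CPM. The part of this in the Gas5 difference was not tested.

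Irradiation alone left Gas5 at 1084, 921, 946 and 890.0 CPM in mice 1 to 4, lower than without irradiation in 4 of 4 mice. The fitted change was −0.25 ± 0.07, or 84.3% of the non-irradiated level, again without overlap between the groups. Stem and progenitor markers summed to 2324 to 2715 CPM after irradiation, against 3211 to 4327 CPM without it. Paneth cell markers summed to 14461 to 28027 CPM, against 9929 to 14468 CPM. Their part in the difference was not tested.

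With irradiation and VIP together Gas5 was at 1049.5, 1012, 946 and 896 CPM. This was within the range of irradiation alone, with 2 mice higher and 2 lower and a fitted VIP effect of 0.02 ± 0.07. Compared with VIP alone, the irradiated VIP-treated samples were higher in 3 of 4 mice, at a fitted 0.11 ± 0.07. The order of the 4 conditions was therefore untreated (mean 1138 CPM), irradiated and VIP-treated (976), irradiated (960.5) and VIP-treated (901). The first stood clear of the second, and the other neighbours overlapped.

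**Figure D3:**
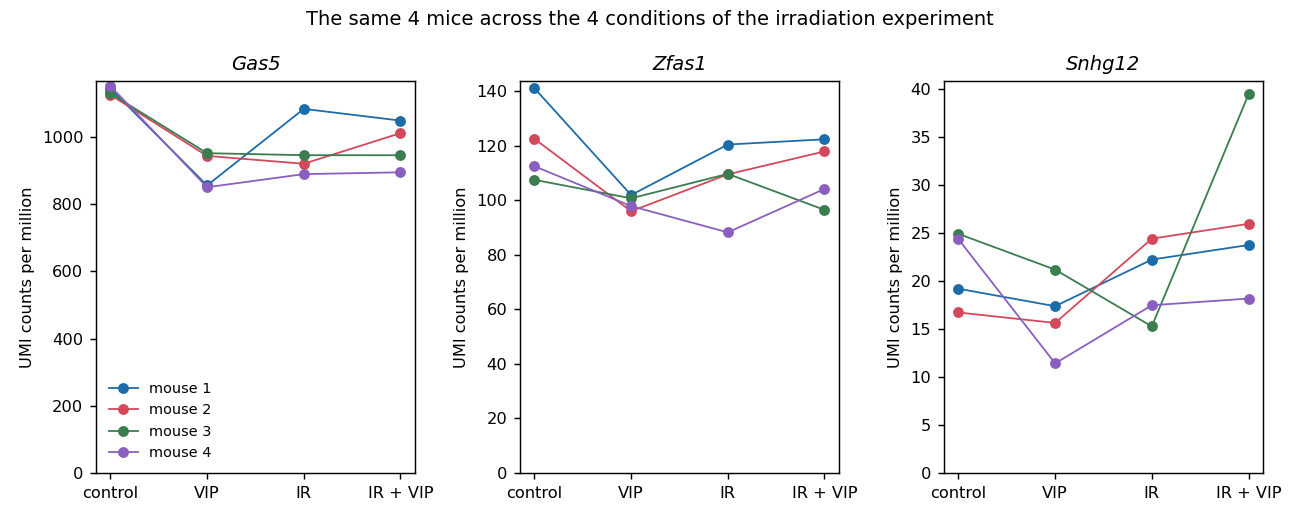
CPM of Gas5, Zfas1 and Snhg12 in Lgr5-EGFP+ cells of the irradiation experiment, with a line for each of the 4 mice across untreated, VIP-treated, irradiated (IR) and irradiated VIP-treated conditions. Gas5 is highest without treatment in all 4 mice, and Snhg12 is lower with VIP alone and higher with VIP after irradiation in all 4 mice.

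After 72 h of VIP, the sorted Lgr5-EGFP+ cells did not separate for Gas5. Untreated samples were at 785, 743, 1129 and 976 CPM and VIP-treated samples at 825, 782, 734 and 645 CPM in mice 1 to 4. Mice 1 and 2 differed by 0.07 each on the log2 scale, higher with VIP, and mice 3 and 4 by −0.62 and −0.60. The fitted change was −0.26 ± 0.14, with 418 to 925 Gas5 UMIs per sample and overlapping groups. These samples were the shallowest of the series, and the within-mouse Gas5 differences had an SD of 0.39 on the log2 scale against 0.10 for VIP without irradiation in the other sorted experiment.

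Snhg1, the other host of many C/D snoRNAs, was lower with VIP in whole organoids in 3 of 3 mice and without overlap. It was at 47.6, 63.2 and 49.0 CPM untreated and at 38.6, 44.7, 43.3 and 41.6 CPM with VIP, a fitted change of −0.33 ± 0.11. Without the second library of VIP-treated mouse 3 it was −0.43. In non-irradiated Lgr5-EGFP+ cells it was at 72.4, 73.7, 53.8 and 60.5 CPM untreated and at 58.1, 59.5, 62.3 and 43.8 CPM with VIP. This was lower in 3 of 4 mice and higher in mouse 3, with a fitted change of −0.21 ± 0.12. After irradiation it was at 48.7 to 60.2 CPM without and 50.6 to 66.5 CPM with VIP, which did not separate. In the 72 h experiment its 18 to 63 UMIs per sample gave counting errors of 19.3% and 16.7% in the 2 groups, and the mice split 2 against 2.

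Zfas1, the host of 3 C/D snoRNAs including Snord12, depended on 1 library in whole organoids. Untreated cultures were at 78.6, 110.4 and 99.2 CPM, and VIP-treated cultures at 66.5, 296, 80.3 and 66.0 CPM in mice 1 to 4. The within-mouse differences were −0.24, 1.42 and −0.30 on the log2 scale in mice 1, 2 and 3. The fitted change was 0.33 ± 0.25 with all libraries and −0.40 ± 0.11 without the second library of VIP-treated mouse 2. In that pair of libraries Zfas1 had the second largest ratio of 5569 genes. It was exceeded by the mitochondrial transfer RNA mt-Tt (460 and 74 UMIs). The others of the 8 transcripts more than 2-fold apart in it, all named after their values were seen, were Nme7, the pseudogene Rpl36a-ps2, Snhg8, the ribosomal protein messages Rps15a (3709 and 1551 UMIs) and Rpl35a (946 and 3255), and Pabpc4 (351 and 1081), which encodes a poly(A)-binding protein.

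In the sorted cells Zfas1 had no such library. Non-irradiated cells of the irradiation experiment were at 141, 123, 108 and 113 CPM untreated and at 102, 96.0, 101 and 97.9 CPM with VIP. The level was lower in 4 of 4 mice and the groups did not overlap, at a fitted −0.28 ± 0.09. After irradiation Zfas1 was at 120.5, 109.6, 109.7 and 88.3 CPM without VIP and at 122, 118, 96.5 and 104 CPM with VIP, which overlapped. After 72 h of VIP it was lower in 3 of 4 mice, from 78.5 to 123 CPM in untreated and from 61.0 to 97.3 CPM in VIP-treated samples, with a fitted change of −0.33 ± 0.19.

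Snhg6, the host of the single C/D snoRNA Snord87, was the member with the least regular pattern. In whole organoids it was at 55.8, 61.4 and 51.6 CPM untreated and at 52.9, 44.0, 51.1 and 49.0 CPM with VIP, lower in 3 of 3 mice, although mice 1 and 3 differed by −0.07 and −0.01 on the log2 scale. In non-irradiated Lgr5-EGFP+ cells mice 1 and 2 were lower and mice 3 and 4 higher with VIP. After irradiation it was at 31.6, 36.3, 27.7 and 29.4 CPM without and at 43.3, 27.5, 41.2 and 44.9 CPM with VIP. It was higher in 3 of 4 mice, with mouse 2 in the opposite direction, at a fitted 0.33 ± 0.17 and 29 to 84 UMIs per sample.

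Snhg8, which hosts the H/ACA snoRNA Snora24, had no regular difference. In whole organoids the fitted VIP effect was −0.09 ± 0.10, from 83.5 to 98.5 CPM in untreated and 78.2 to 97.5 CPM in VIP-treated cultures. Both cultures of mouse 2 had libraries that disagreed, with 152 and 345 UMIs without VIP and 389 and 231 UMIs with VIP. Leaving out the second library of VIP-treated mouse 2 turned the fitted change to 0.08, and the first library of each culture alone gave 0.22. In non-irradiated Lgr5-EGFP+ cells Snhg8 was at 147, 133, 130.2 and 99.4 CPM untreated and at 118, 110.1, 112 and 118 CPM with VIP, lower in 3 of 4 mice at a fitted −0.14 ± 0.10. The VIP-treated samples had a coefficient of variation of 3.39% and the untreated ones of 15.7%, and the groups overlapped through mouse 4. In the 72 h sorted cells the within-mouse differences of Snhg8 were 0.63, −0.27, −0.31 and −0.62 on the log2 scale, at a fitted −0.14 ± 0.18 that ran from −0.40 to 0.02 when 1 mouse was left out.

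Snhg12, with loci of both snoRNA classes, was the least abundant in UMIs, with 4 to 88 per sample. In whole organoids it was at 14.2, 17.4 and 12.5 CPM untreated and at 11.4, 13.4, 10.6 and 13.0 CPM with VIP, lower in 3 of 3 mice at a fitted −0.32 ± 0.17, with overlap between mice. In non-irradiated Lgr5-EGFP+ cells it was at 19.2, 16.7, 24.9 and 24.3 CPM untreated and at 17.4, 15.6, 21.2 and 11.4 CPM with VIP. Mouse 4 differed by 1.01 on the log2 scale and the other 3 by 0.09 to 0.22, all lower, at a fitted −0.38 ± 0.23. Without mouse 4 the fitted change was −0.16.

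After irradiation Snhg12 was at 22.2, 24.4, 15.3 and 17.5 CPM without and at 23.7, 26.0, 39.4 and 18.2 CPM with VIP. It was higher in 4 of 4 mice, but by 1.30 on the log2 scale in mouse 3 and by 0.05 to 0.09 in the others, at a fitted 0.36 ± 0.21. Without mouse 3 the fitted change was 0.06. Irradiation of VIP-treated cells gave a more even difference, of 0.42, 0.69, 0.86 and 0.62 on the log2 scale in mice 1 to 4 and a fitted 0.70 ± 0.22. The levels of this pair of groups were 11.4 to 21.2 and 18.2 to 39.4 CPM and overlapped between mice. In this experiment counting error would give a coefficient of variation of 14.9% to 20.4% for Snhg12, against 18.7% to 33.6% observed in the 4 groups.

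**Figure D4:**
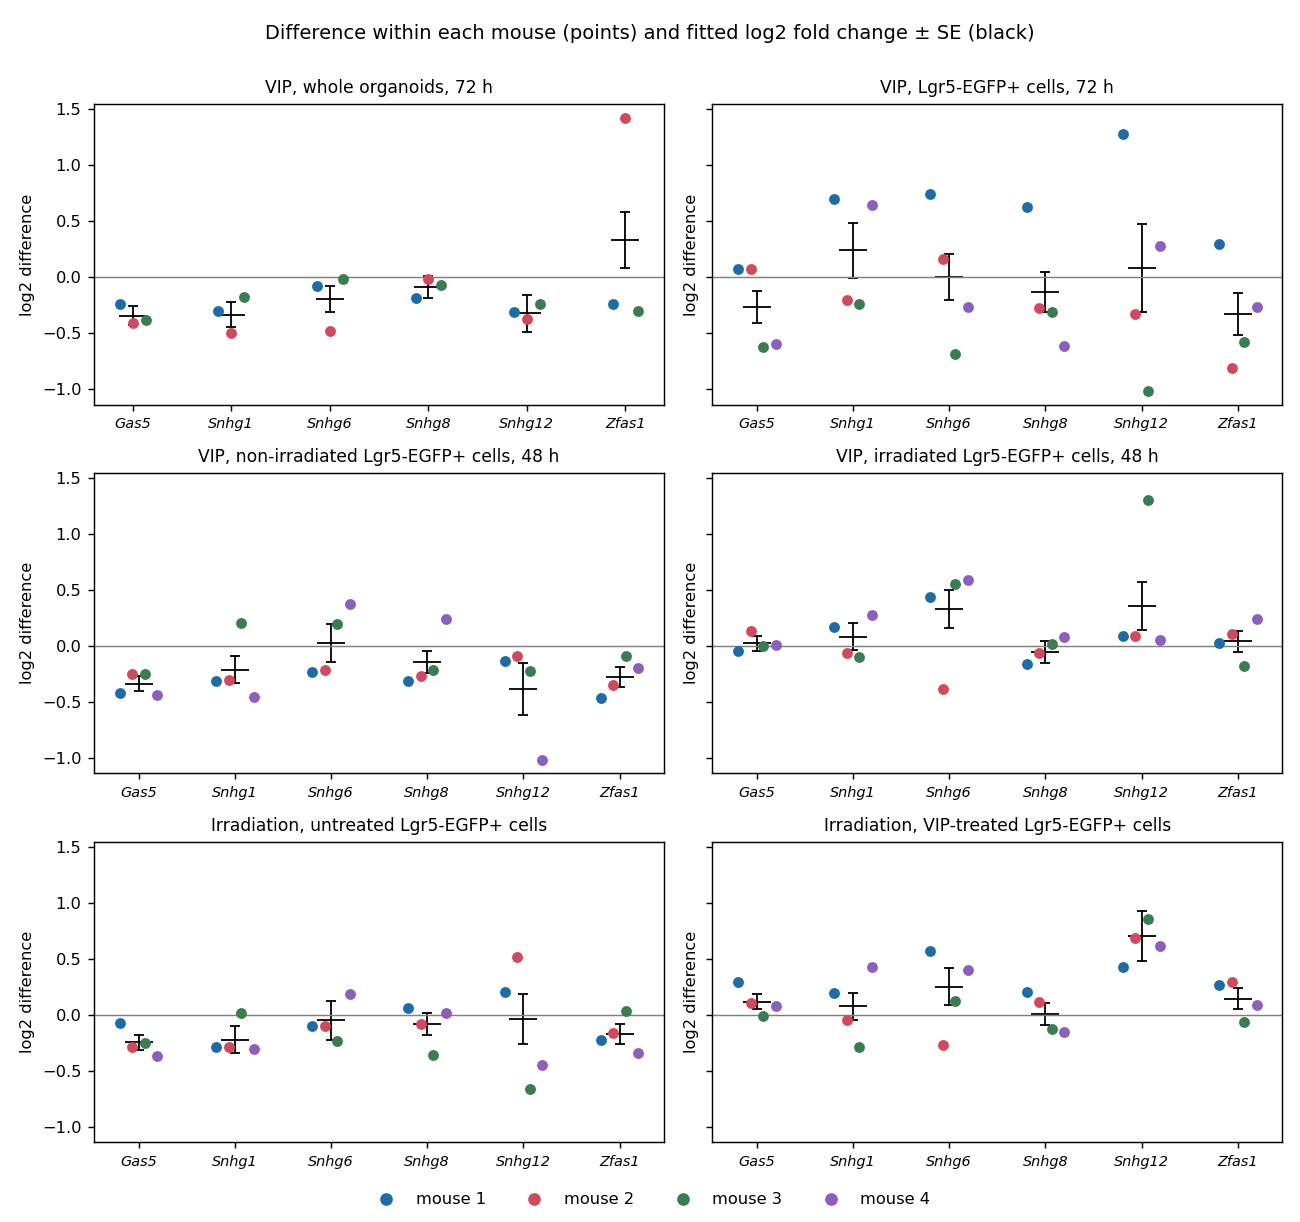
Log2 difference of each host transcript within each mouse (points, coloured by mouse) and the fitted log2 fold change ± SE (black) for the VIP effect in 4 settings and the irradiation effect in untreated and VIP-treated cells. Gas5 points lie below 0 in all mice with VIP in whole organoids and in non-irradiated Lgr5-EGFP+ cells, and the 72 h experiment shows the widest spread between mice.

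Counts of members past the threshold (adjusted p of 0.05 or less, edgeR's quasi-likelihood test) are given beside the share of all genes tested, and nothing is read from them, because effects in these contrasts were in view when the members were chosen. In whole organoids 1 of 6 members, Gas5, was past it, where 4.82% of 12727 genes were and 1.10% were lower. All but Zfas1 were lower in every mouse, against 18.7% of genes, and 2 members, Gas5 and Snhg1, did not overlap between groups, against 4.09%. In the 72 h sorted cells 0 of 6 members were past it, where 0.0885% of 6778 genes were. In non-irradiated Lgr5-EGFP+ cells Gas5 was past it, where 0.742% of 9976 genes were and 0.261% were lower. There 3 members, Gas5, Snhg12 and Zfas1, were lower in every mouse (10.5% of genes), and Gas5 and Zfas1 did not overlap between groups (3.10%).

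For VIP after irradiation 0 of 6 were past the threshold, where 0.221% of genes were, and 1, Snhg12, was higher in every mouse (7.44%). Irradiation of untreated cells had Gas5 past it and lower, where 4.46% of genes were past it and 1.59% were lower. Gas5 was there the 1 member lower in every mouse (11.0% of genes) and the 1 without overlap (3.89%). Irradiation of VIP-treated cells had Snhg12 past it and higher, where 7.78% of genes were past it and 4.32% were higher, and Snhg12 was the 1 member higher in every mouse (13.4%). The VIP and irradiation contrasts of this experiment share samples, so they are not separate evidence.

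The Gas5 call in whole organoids was lost in 5 of 13 alternatives, with DESeq2, without the mouse as a block, without mouse 1, without mouse 2, and without the second library of VIP-treated mouse 2. Its sign was the same in all 13, from −0.41 to −0.31. In non-irradiated cells the call was lost in 1 of 11, without mouse 4, where the fitted change was −0.30. With irradiation of untreated cells it was lost in 5 of 11, without the mouse as a block, with the 2 groups fitted alone and without mouse 2, 3 or 4, over values from −0.29 to −0.20. The Snhg12 call was lost in 6 of 11, with DESeq2, without the mouse as a block and without any 1 of the 4 mice, over values from 0.62 to 0.79.

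The question whether VIP acted differently on the hosts after irradiation was addressed by the VIP by irradiation interaction, which uses all 16 samples. The difference between the VIP effect after and without irradiation was positive for 6 of 6 members. It was also positive for 10 of 11 other non-coding snoRNA hosts, and for 5077 of all 9976 genes. Among protein-coding hosts it was positive for 11 of 22 ribosomal protein genes and 9 of 19 others. Its median on the log2 scale was 0.31 for members and 0.18 for those other hosts, against 0.0059 over all genes. It is built from the contrasts that chose the members and is no separate support for them. It was 0.36 ± 0.09 for Gas5, with an adjusted p of 0.615 in edgeR's quasi-likelihood test. Gas5 and Snhg12 were positive in 4 of 4 mice, as 7.79% of genes were. It was 0.74 ± 0.31 for Snhg12 (adjusted p = 0.703) and 0.32 ± 0.13 for Zfas1 (adjusted p = 0.687). Snhg1, Snhg6 and Snhg8 had adjusted p of 0.854 to 0.965. No member passed, as no gene did: 0 of 9976 genes were past the threshold and 634 (6.36%) had an unadjusted p under 0.05, and DESeq2's Wald test also called 0, with 266 at an unadjusted p under 0.05. The adjusted p of Gas5 ranged from 0.0571 to 0.986 over 10 alternative settings.

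Whether whole organoids and sorted cells differed in their VIP effect after 72 h was asked by the interaction of VIP with the compartment. It was not past the threshold for any member, where 0.147% of 10186 genes were. The difference was 0.08 ± 0.20 for Gas5 (adjusted p = 0.982), 0.58 ± 0.26 for Snhg1 (adjusted p = 0.753) and −0.64 ± 0.36 for Zfas1 (adjusted p = 0.852). The value of Zfas1 became 0.08 without the second library of VIP-treated mouse 2. Experiment, mouse line and compartment cannot be told apart in this comparison, since organoids and sorted cells came from different mice. Only the mice used for sorting carried the green reporter.

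Other non-coding snoRNA hosts (a list of 15, among them Snhg3, Snhg5, Snhg9 and Dancr) were set beside the members. In whole organoids 12 passed the filter on low counts, 0 were past the threshold and 10 were negative, with a median log2 fold change of −0.20 against −0.0041 over all genes. In non-irradiated Lgr5-EGFP+ cells 11 were tested, 0 were past the threshold, 9 were negative and the median was −0.24 against −0.0033 over all genes. After irradiation the VIP effect had a median of −0.02 over the 11, with 6 negative and 5 positive. In irradiated against non-irradiated VIP-treated cells 1 of 11 was past the threshold, where 7.78% of all genes were and 4.32% were higher, so nothing is read from the count. The 1 past it was Snhg15, which was higher by 0.45 ± 0.12 (adjusted p = 0.0154, 3 of 4 mice). Snhg9, named after its values were seen, was nearest to the threshold with VIP in non-irradiated cells, at −0.46 ± 0.12 in 4 of 4 mice (adjusted p = 0.067).

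**Figure D5:**
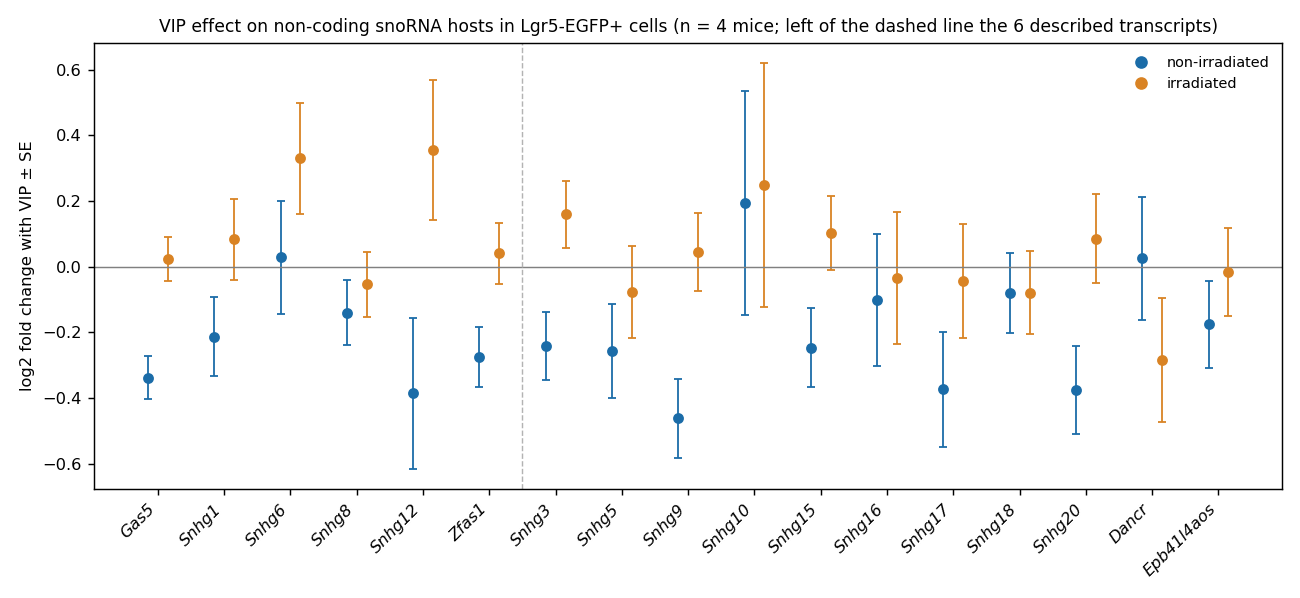
Fitted log2 fold change with VIP ± SE in Lgr5-EGFP+ cells without (blue) and after irradiation (orange), for the 6 members at the left of the dashed line and the 11 other non-coding snoRNA hosts that passed the filter on low counts at the right. Without irradiation 5 of 6 members and 9 of 11 others are below 0, and after irradiation 1 of 6 and 6 of 11 are.

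Protein-coding snoRNA hosts were described in the same way, by counts and medians. Of 22 ribosomal protein genes that host snoRNAs, 0 were past the threshold with VIP in whole organoids, 21 were negative and the median was −0.20. This was not particular to hosts, since 75 of all 84 cytosolic ribosomal protein genes tested there were negative, with a median of −0.18. Of the 19 other protein-coding hosts 18 were negative there (median −0.16). In non-irradiated Lgr5-EGFP+ cells 11 of the 22 were negative with a median of 0.02. With irradiation of untreated cells, Rpl3 (−0.38 ± 0.09, adjusted p = 0.0138) and Rpl32 (−0.23 ± 0.06, adjusted p = 0.0158), both proteins of the large ribosomal subunit, fell in 4 of 4 mice. With irradiation of VIP-treated cells, Rpl3 (−0.50 ± 0.09) and Rps2 (−0.39 ± 0.09) fell, with adjusted p of 0.000722 and 0.0062. Over all 81 cytosolic ribosomal protein genes tested in that comparison, 64 were negative and 17 positive, while Gas5 was at 0.11 ± 0.07. Past the threshold, 17 were lower and 1, Rps27l, was higher, where 3.46% of all genes were lower and 4.32% higher. Of 19 other protein-coding hosts, Hspa8, a chaperone (−0.32 ± 0.07), and Eif4a1, a translation initiation helicase (−0.36 ± 0.09), fell in that comparison with adjusted p of 0.0036 and 0.0169, and 0 were past the threshold in the other 5 VIP or irradiation comparisons.

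Genes that act on snoRNAs or on host transcripts were also counted. None of the 8 core proteins of snoRNA particles, among them the methyltransferase fibrillarin (Fbl) and the pseudouridine synthase dyskerin (Dkc1), was past edgeR's threshold in any of the 8 comparisons, with medians between −0.16 and 0.12. Among nonsense-mediated decay factors, Smg6 rose with irradiation of VIP-treated cells (0.64 ± 0.18, adjusted p = 0.0295, 4 of 4 mice). Of the unrelated long non-coding RNAs on the list, 5 passed the filter in whole organoids and 5 in the irradiation experiment. With VIP in non-irradiated cells 3 of 5 were negative (median −0.17) and with irradiation of untreated cells 3 of 5 (median −0.39), with none past the threshold and lower. Those past it were higher. Malat1, a nuclear-retained RNA, rose with VIP in whole organoids by 0.48 ± 0.09 (adjusted p = 0.00694, 3 of 3 mice). With irradiation of untreated cells, Malat1 rose by 0.32 ± 0.08 (adjusted p = 0.0248) and Neat1, the paraspeckle RNA, by 0.56 ± 0.16 (adjusted p = 0.0407), each higher in 3 of 4 mice. With irradiation of VIP-treated cells, Neat1 rose by 0.82 ± 0.16 (adjusted p = 0.00199, 4 of 4 mice). It was the 1 past the threshold there, and 2 of the 5 were negative.

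The genes most like Gas5 across the 16 samples of the irradiation experiment, by Pearson's r of log2 CPM after centring each mouse, were Coa6 (r = 0.92), Mrpl52 (0.92), Cox6c (0.92), Fam183b (0.91) and Hint1 (0.90). Coa6 and Cox6c belong to cytochrome c oxidase and its assembly, and Mrpl52 to the mitochondrial ribosome. Among 9975 other genes, with a median r of −0.01, Zfas1 ranked 60th (r = 0.76), Snhg1 413th (0.59), Snhg8 872nd (0.47), Snhg12 1763rd (0.32) and Snhg6 6231st (−0.11). Among other non-coding hosts Snhg9 ranked 15th (0.85). The 81 cytosolic ribosomal protein genes had a median r of −0.01, and 1 of them was among the 100 genes most like Gas5. Between other members r was highest for Snhg1 and Zfas1 (0.62). These points share libraries, depth and condition, and the values describe the 16 samples without a test.

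At 3 of the 6 loci a gene on the opposite strand overlaps the host, Zbtb37 at Gas5, Mcmdc2 at Snhg6 and Znfx1 at Zfas1, and whether counting used the strand is not given in the sources used here. Zbtb37 was at 6.23 CPM in untreated and 5.84 CPM in VIP-treated organoids and was below the filter in sorted cells. Znfx1 was at 12.2 and 12.6 CPM in organoids and at 3.92 to 7.24 CPM in the irradiation experiment. None of them was past the threshold where it was tested.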

How the data were processed

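Polyadenylated RNA was captured at its 3′ end with a sample barcode and a UMI, and the authors derived a table of UMIs for each gene using the Drop-seq pipeline (GRCm38, GENCODE annotation); the aligner is not given in the sources used here. The counts were deposited raw, as whole numbers per library, and 0 columns were without a sample. Technical replicate libraries were summed per culture (3 untreated and 4 VIP-treated organoid cultures, 4 cultures in each sorted group). Replicates are cultures of separate mice, paired by mouse. As a check, deviations from group means correlated at 0.27 to 0.63 between cultures of the same mouse in organoids, 0.03 to 0.21 in the 72 h sorted cells and −0.07 to 0.16 in the irradiation experiment. The mean correlations were 0.48, 0.13 and 0.05 for the same mouse, against −0.15, −0.04 and −0.02 for different mice.

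Counts were fitted in R 4.3.3 with edgeR 4.0.16 (TMM, filterByExpr by group, quasi-likelihood test, mouse as a block), with p-values adjusted by Benjamini-Hochberg over all genes tested and a threshold of 0.05. CPM within mice used a prior count of 2 on the log2 scale. The SE is the size of the log2 fold change from the unshrunk coefficients, divided by the square root of the F statistic. The log2 fold changes given are edgeR's own, which include a small prior count. The members, lists and comparisons were chosen with earlier results of these data known, so the VIP and irradiation effects of members, and whether they passed the threshold, are a description and no p is given for them. Named are the 6 members, at most 3 genes per list and direction past the threshold with the smallest p, and the 5 genes most like Gas5. The fit was tested on simulated counts. Alternatives were DESeq2 1.42.0, RLE factors, library size only, no or a stricter filter (10 counts in every sample), no replicate block, each mouse left out, first libraries only, only the groups compared, and 2 libraries left out, of which that of mouse 2 was chosen after seeing the data. Positions are from GENCODE on GRCm38. Cell counts behind each library are not given in the sources used here. Results of some listed genes are not reported here.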

Additional observations from a re-analysis of the deposited data

Results flagged for a closer look

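In groups of 4 cultures, 1 culture lay far from the other 3 in 4 of the 42 member and group combinations tested, where chance gives about 1 in 20. Zfas1 in VIP-treated organoids was at 296 CPM in mouse 2 with the next culture at 80.3 CPM, and Snhg8 in the same culture was at 97.5 CPM with the next at 80.5 CPM. In the 72 h sorted cells, Snhg8 was at 83.3 CPM in untreated mouse 1 with the next sample at 134 CPM, and Snhg12 was at 8.15 CPM in VIP-treated mouse 3, from 5 UMIs, with the next at 17.9 CPM.

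Every mouse moved one way in one condition and the other way in the second for 3 of 46 gene and contrast pairs of the non-coding snoRNA hosts. The share of all genes that meet this rule was not computed, so nothing is read from the count. With VIP, Snhg12 was lower in 4 of 4 mice without irradiation and higher in 4 of 4 after it, and Snhg3 showed the same directions. The rise of Snhg12 after irradiation was only 0.05 to 0.09 on the log2 scale in mice 1, 2 and 4. The interactions of Snhg12 and Snhg3 were 0.74 and 0.40 on the log2 scale, neither past the threshold (edgeR adjusted p = 0.703 and 0.687). With irradiation, Snhg9 was lower in 4 of 4 untreated and higher in 4 of 4 VIP-treated pairs, at an interaction of 0.51 (adjusted p = 0.687).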

How the results depend on the processing

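All alternatives ran. Of 562 values of the members over them, 35 had the sign opposite to the reported value, 10 in the compartment interaction and 25 elsewhere (9 in 72 h sorted cells, 5 in organoids), and none of these belonged to a member past the threshold as reported. Of 376 list medians 361 stayed within the spread and 15 moved, and of 94 counts of genes past the threshold 46 stayed within 1.5 times. For the compartment, leaving out 1 mouse gave −0.051 to 0.22 for Gas5, −0.063 to 0.42 for Snhg6, −0.33 to 0.13 for Snhg8 and −0.041 to 0.73 for Snhg12, and Zfas1 was at 0.22 with first libraries and at 0.080 without the second library of VIP-treated mouse 2.

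Genes past the threshold numbered 614 for VIP in whole organoids, 6 in 72 h sorted cells, 74 without and 22 after irradiation, 445 and 776 for irradiation of untreated and VIP-treated cells, 0 for the VIP by irradiation interaction and 15 for the compartment. With DESeq2 they were 300, 2, 12, 281 and 489 for organoids, 72 h sorted cells, VIP after irradiation and both irradiation effects. With any count they were 979, 17, 182, 110, 34 and 57, for organoids, 72 h sorted cells, VIP without and after irradiation, the irradiation interaction and the compartment. With library size alone 72 h sorted cells had 14 and the compartment 9, and with at least 10 counts in every sample 11 and 7. Without the replicate block, that is without pairing by mouse, the counts were 99 (organoids), 1, 34, 12 and 0 (compartment). The calls of Gas5 in organoids and after irradiation and of Snhg12 were lost without the block, and no other member's call changed with it. In organoids Snhg1 passed in 3 of 13 alternatives and Zfas1 in 2, at 0.69 without mouse 3 and at −0.55 with first libraries. With only the groups compared, VIP without and after irradiation had 184 and 52. First libraries alone gave 28 for the compartment. Without the second library of VIP-treated mouse 3 organoids had 1261 and the compartment 27.

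Leaving out 1 mouse gave 363 to 1668 in organoids (highest without mouse 3, lowest without mouse 2), 3 to 17 in 72 h sorted cells, 32 to 42 and 5 to 35 for VIP without and after irradiation, 176 to 643 and 426 to 691 for irradiation, 0 to 1 for its interaction and 3 to 24 for the compartment. The cause was not tested. Snhg12 failed the filter of 10 counts in 72 h sorted cells. Counting error was largest for Snhg12, and the 72 h sorted samples were the shallowest. Gas5 there had a coefficient of variation of 19.6% untreated and 10.4% with VIP, against 4.11% and 4.24% from counting error. With mouse as a block, the p-values set an effect against the spread left after group and mouse were fitted, over 3 or 4 mice. In organoids VIP-treated mouse 4 had no untreated culture and adds no within-mouse difference. Counts are of polyadenylated host transcripts alone.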
